A study of Rattus norvegicus with 23 samples.

Results

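The antioxidant enzymes described here are 10 genes that remove superoxide, peroxides or free heme: Sod1, Sod2, Cat, Gpx1, Gpx3, Prdx3, Prdx5, Txnrd2, Hmox1 and Gstk1. Members were the probe sets whose single gene symbol in the array annotation is one of these names. Each gene had exactly 1 such probe set, so the 10 members were 10 of the 29170 probe sets on the table and 10 of the 15310 with 1 symbol, and no filter on low values removed any of them. RNA of whole newborn hearts was hybridized to Affymetrix Rat Gene 1.0 ST arrays, 1 heart per array, to compare offspring of 4 kinds of pregnancy. Combination exposed hearts (n = 5) came from dams fed a high fat (HF) diet and made diabetic, diabetes exposed hearts (n = 6) from dams on control diet made diabetic, HF diet exposed hearts (n = 5) from dams fed the HF diet alone, and controls (n = 7) from dams on control diet without diabetes. Feeding began 28 days or more ahead of mating and went on through pregnancy. Diabetes was induced on gestational day 14 with streptozotocin at 65 mg/kg, a toxin of insulin-producing beta cells, and its hyperglycemia was held partly in check with insulin, while the other dams were injected with citrate buffer on that day. The model is therefore one of late gestational diabetes. All hearts were taken from rats on postnatal day 1. Males and females were mixed in every group, and which heart was of which sex is not stated.

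A heart turns over more oxygen per gram than almost any other tissue, and its mitochondria leak superoxide as a by-product of respiration. Superoxide dismutases convert superoxide to hydrogen peroxide, which catalase, the glutathione peroxidases and the peroxiredoxins then reduce to water, the last of these drawing electrons from thioredoxin and its reductase. Around birth the heart passes from a low to a high oxygen supply and shifts its fuel from glucose toward fatty acids, and antioxidant enzymes are known to increase before birth in several organs of mammals.

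Values were deposited on a log2 scale, with each probe set centred so that its median over the 23 hearts is 0. A value is therefore a distance from the middle heart, the level of an enzyme cannot be read, levels of 2 enzymes cannot be compared, and the presence of cardiac markers could not be checked. A difference was called where limma, fitted once to all 23 hearts and 29170 probe sets, gave a difference beyond 0.32 on the log2 scale up or down and an unadjusted p under 0.05, the fold limit and p of the study's methods. In bulk RNA of this kind, fewer cells of a type and less RNA per cell cannot be told apart. The values of an array had an SD of 0.16 to 0.393 and a median of -0.015 to 0.019, with combination exposed heart 1 the widest. Control heart 1 had a mean of 3.46 for 7 lung genes and 3.64 for 7 lymphocyte and thymus genes, while the other hearts reached at most 0.838 and 0.23. Sample codes share a stem between combination exposed hearts 1 and 2, between hearts 4 and 5 of that group, and between HF diet exposed hearts 3, 4 and 5. What a stem stands for is not given, so the p-values speak only for the scatter among these hearts, some of which may be litter mates.

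**Figure D1:**
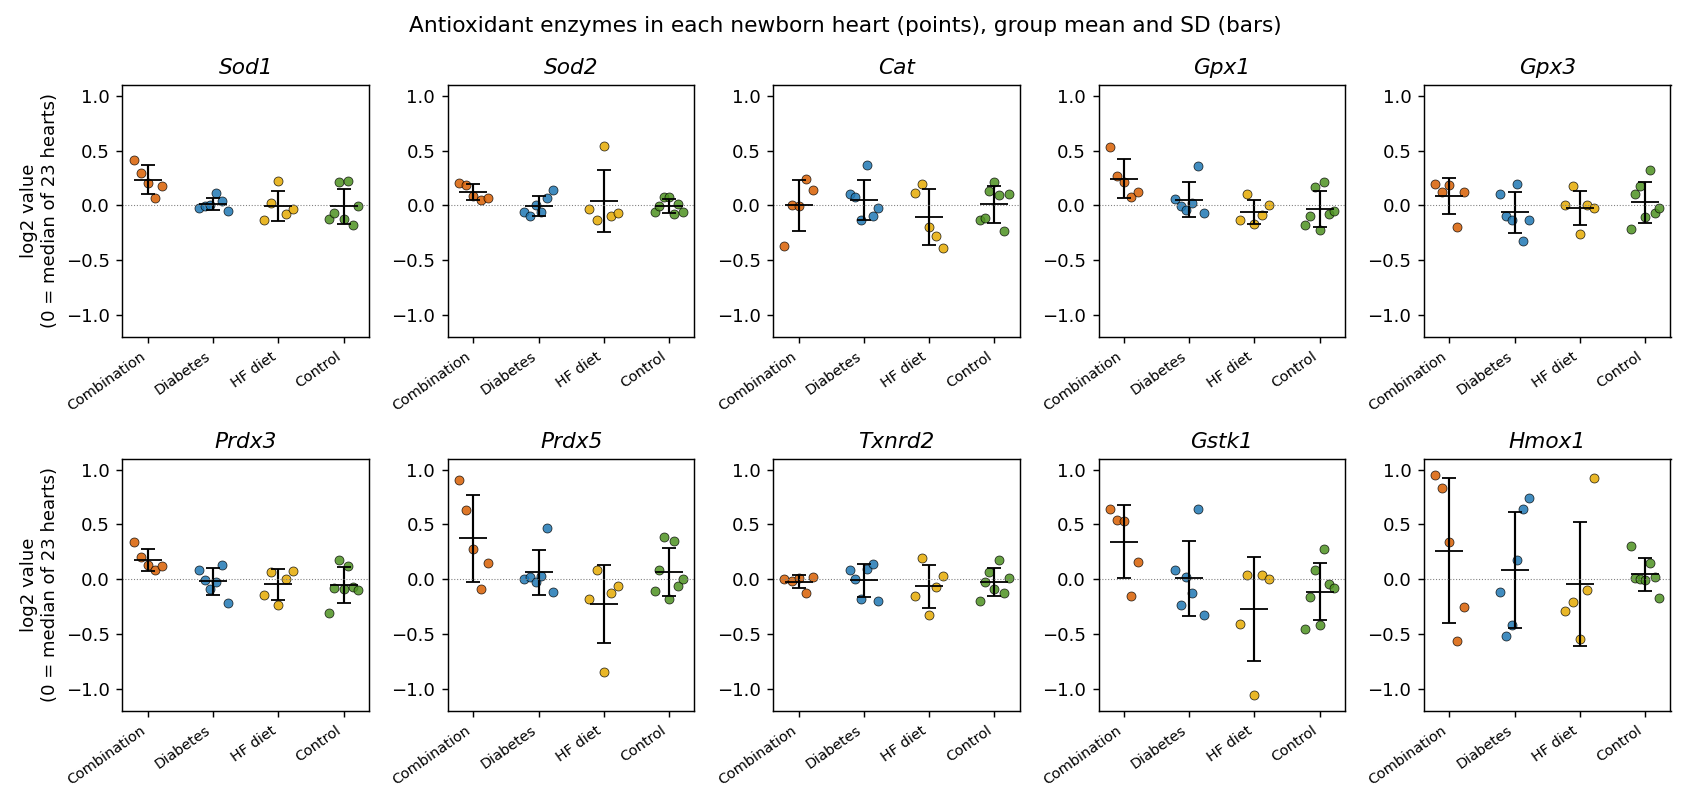
Log2 value of the 10 enzymes in each of 23 hearts (points), where 0 is the median heart for that gene, with the mean and SD of each group as bars. The combination exposed group had the highest mean for every enzyme but Cat and Txnrd2, and Hmox1 scattered from -0.57 to 0.95 in that group against -0.18 to 0.30 in controls.

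Against controls, Gstk1 was higher in combination exposed hearts, and Gpx1, Sod1 and Prdx3 had higher means that stayed under the fold limit. Of the 10 genes 1 passed the threshold upward and 0 downward, where 3.31% of all 29170 probe sets passed it in either direction and 2.1% upward. At an unadjusted p under 0.05 without the fold limit there were 4 of 10, against 9.9% of all probe sets. The difference was above 0 for 9 of 10 enzymes, with a median of 0.22, whereas 50.6% of all probe sets were above 0 and their median was 0.0018. The enzymes were chosen with earlier results of these data known, so these counts are descriptions and not tests. After Benjamini-Hochberg adjustment over 29170 probe sets no enzyme passed 0.05, nor did any other probe set, and the lowest adjusted p of this comparison in limma was 0.495.

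Gstk1, glutathione S-transferase kappa, is a glutathione-using enzyme of mitochondria and peroxisomes. Its values were 0.65, 0.54, 0.53, -0.15 and 0.16 in the 5 combination exposed hearts and ran from -0.45 to 0.27 (median -0.081) in controls. The first 3 combination exposed hearts stood above every control, and hearts 4 and 5 lay within the control range. The mean was 0.34 ± 0.33 in combination exposed hearts and -0.12 ± 0.26 in controls (SD, n = 5 and 7). The limma difference was 0.46 (SE 0.19, 95% interval 0.059 to 0.86), a 1.37-fold higher signal with an unadjusted p of 0.0262, an adjusted p of 0.495 and an exact two-sided permutation p of 0.0278 over 792 splits. The call was lost without combination exposed heart 1, 2 or 3 or without control heart 1 or 4, where the difference was 0.38 to 0.41, and with the mean of an erythroid gene list as a covariate it was 0.29 (SE 0.20).

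Gpx1, the main cytosolic and mitochondrial glutathione peroxidase, had 0.53, 0.27, 0.21, 0.077 and 0.12 in combination exposed hearts, against -0.22 to 0.22 (median -0.083) in controls. All 5 combination exposed hearts were above the control median, and 2 of them were above every control. Those 2 were hearts 1 and 2, which share a code stem and may be litter mates. The difference was 0.28 (SE 0.092), 1.21-fold, with p = 0.00628 in limma and an exact permutation p of 0.0227. It fell short of the threshold by its fold only.

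Sod1, the copper-zinc superoxide dismutase of the cytosol, had 0.42, 0.30, 0.21, 0.065 and 0.18 in combination exposed hearts and -0.18 to 0.22 (median -0.065) in controls, again with 5 of 5 above the control median. The difference was 0.24 (SE 0.08), with p = 0.00564 in limma and an exact permutation p of 0.0278. Prdx3, the peroxiredoxin of the mitochondrial matrix, had 0.34, 0.20, 0.13, 0.085 and 0.12 in combination exposed hearts and -0.31 to 0.17 (median -0.085) in controls. Its difference was 0.23 (SE 0.082), with p = 0.0115 in limma and an exact permutation p of 0.0278. Both genes were above all controls in 2 of the 5 combination exposed hearts, again hearts 1 and 2 of the shared stem, and lay under the fold limit.

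Prdx5, a peroxiredoxin found in mitochondria, peroxisomes and cytosol, spread more widely, with 0.90, 0.63, 0.27, -0.094 and 0.15 in combination exposed hearts and -0.18 to 0.38 (median 0) in controls. Hearts 1 and 2, which share a code stem, were above every control, and heart 4 was below the control median. The difference of 0.31 (SE 0.16, 95% interval -0.031 to 0.64, adjusted p = 0.52) did not pass in limma. It was 0.17 without combination exposed heart 1, and it passed without control heart 3 or 5 or combination exposed heart 4, at 0.35 to 0.42. Sod2, the manganese superoxide dismutase of the mitochondrial matrix, had 0.21, 0.18, 0.09, 0.046 and 0.07 in combination exposed hearts and -0.08 to 0.078 (median -0.004) in controls. All 5 combination exposed hearts were above the control median, but limma gave a difference of 0.13 (SE 0.087, p = 0.163), while an exact permutation test on these 2 groups alone gave p = 0.0139. The limma fit carries the spread of all 4 groups, and Sod2 had an SD of 0.28 in HF diet exposed hearts, against 0.072 in combination exposed hearts and 0.066 in controls.

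The remaining enzymes did not pass against controls. Catalase (Cat), the hydrogen peroxide remover of peroxisomes, differed by -0.0099 (95% interval -0.25 to 0.23), Txnrd2, the thioredoxin reductase of mitochondria, by 0.0055 (-0.17 to 0.18), and Gpx3, the secreted glutathione peroxidase, by 0.057 (-0.15 to 0.27). The signs of these 3 small differences turned in some refits: those of Cat and Txnrd2 after quantile normalization of the deposited values and when single hearts were left out, and those of all 3 with the erythroid covariate. Hmox1, the inducible heme oxygenase, which splits heme into biliverdin, iron and carbon monoxide, differed by 0.22 (SE 0.27, adjusted p = 0.773 in limma), and by -0.12 with the erythroid covariate.

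**Figure D2:**
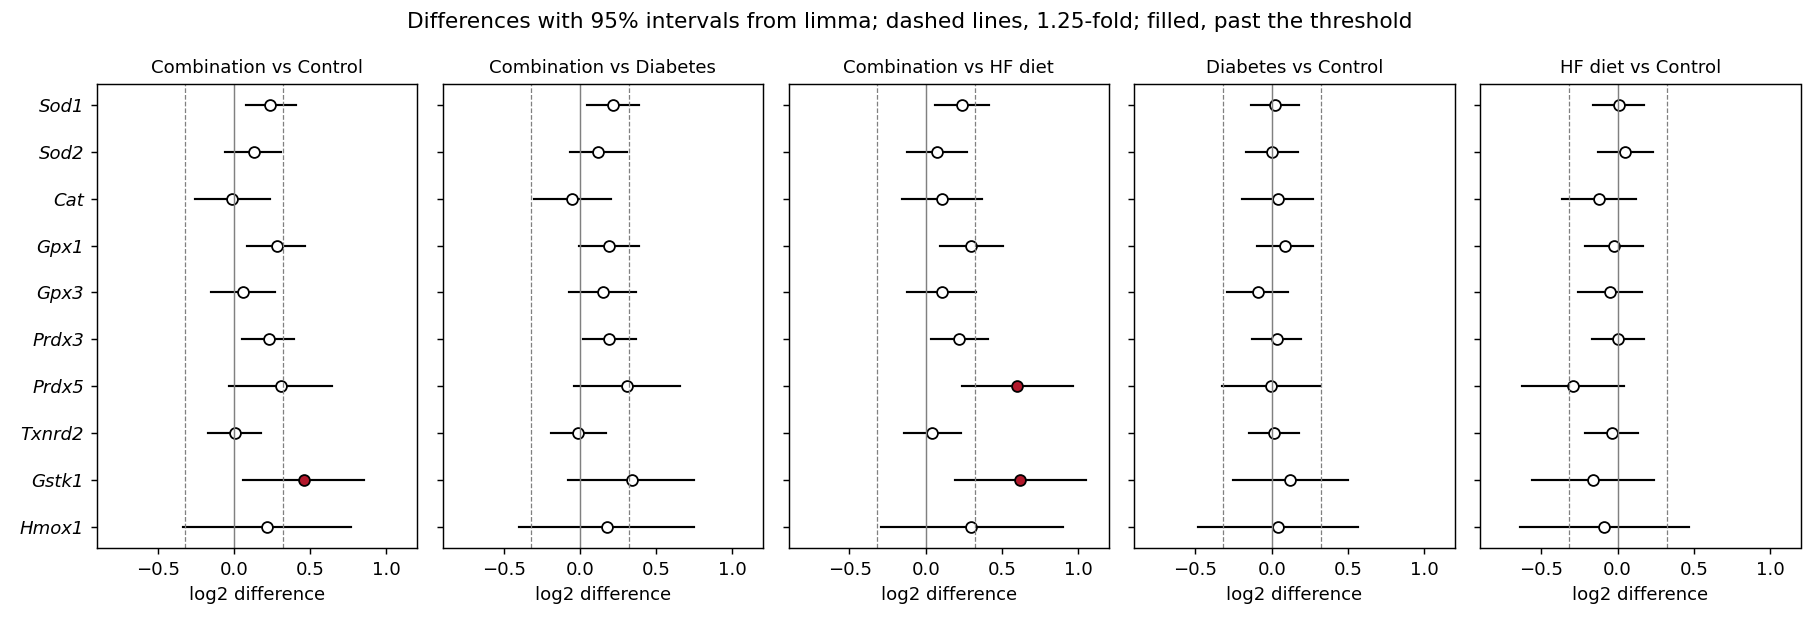
Log2 difference of each enzyme (points) with its 95% interval from limma (bars) in 5 comparisons; positive values are higher in the group named first, dashed lines mark the fold limit of 0.32 and filled points passed the threshold. Gstk1 passed against controls and against HF diet exposed hearts, and Prdx5 against HF diet exposed hearts.

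With either exposure alone no enzyme passed the threshold. In diabetes exposed hearts against controls 0 of 10 passed, where 0.305% of all probe sets did, and 0 of 10 had an unadjusted p under 0.05, where 1.61% of all did. The largest difference was that of Gstk1, 0.12 (95% interval -0.26 to 0.50). Diabetes exposed heart 5 held the highest Gstk1, Prdx5 and Gpx1 of its group, at 0.64, 0.47 and 0.36, and without that heart the Gstk1 difference was -0.0032. In HF diet exposed hearts against controls 0 of 10 passed, where 0.943% of all probe sets did, and again 0 had an unadjusted p under 0.05, where 2.67% of all did. The largest difference was that of Prdx5, -0.29 (SE 0.16, 95% interval -0.63 to 0.043, exact permutation p = 0.104), and it was -0.14 without HF diet exposed heart 3 and passed at -0.37 without HF diet exposed heart 2. Differences from controls were above 0 for 8 of 10 enzymes in diabetes exposed hearts (49.9% of all probe sets) and for 3 of 10 in HF diet exposed hearts (55.8% of all). Diabetes exposed and HF diet exposed hearts did not differ past the threshold in any enzyme, where 0.439% of all probe sets did, and the widest difference, again of Prdx5, was 0.29 (95% interval -0.059 to 0.64) and 0.14 without HF diet exposed heart 3.

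The contrast with the most enzymes past the threshold was that of combination exposed with HF diet exposed hearts, in which Prdx5 and Gstk1 were higher. Here 2 of 10 enzymes passed the threshold upward and 0 downward, where 5.76% of all probe sets passed in either direction and 2.84% upward. The difference was above 0 for 10 of 10 enzymes, with a median of 0.23, against 47.1% of all probe sets above 0 and a median of -0.011 over all. An unadjusted p under 0.05 was reached by 5 of 10 (Sod1, Gpx1, Prdx3, Prdx5 and Gstk1), against 13.3% of all probe sets. The adjusted p of these 5 was 0.368 in limma, and the lowest of any probe set was 0.11.

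Prdx5 had 0.90, 0.63, 0.27, -0.094 and 0.15 in combination exposed hearts, against -0.18, 0.083, -0.85, -0.13 and -0.065 in HF diet exposed hearts. Hearts 1, 2, 3 and 5 of the combination group were above every HF diet exposed heart, and HF diet exposed heart 3 lay far below all others. The difference was 0.60 (SE 0.18, 95% interval 0.23 to 0.96), 1.51-fold, with p = 0.00244 in limma and an exact permutation p of 0.0238 over 252 splits. Gstk1 had 0.65, 0.54, 0.53, -0.15 and 0.16 in combination exposed hearts, against -0.41, 0.041, -1.06, 0.042 and 0 in HF diet exposed hearts. The same 4 combination exposed hearts exceeded all HF diet exposed hearts, and HF diet exposed heart 3 was again lowest. Its difference was 0.62 (SE 0.21, 95% interval 0.19 to 1.05), 1.54-fold, with p = 0.00679 in limma and an exact permutation p of 0.0556. Without combination exposed heart 1 and HF diet exposed heart 3 together, a choice made after seeing the data, the differences were 0.31 for Prdx5 (SE 0.15) and 0.35 for Gstk1 (SE 0.20), and neither passed.

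Prdx3 was the enzyme whose hearts separated fully in this contrast, with 0.34, 0.20, 0.13, 0.085 and 0.12 in combination exposed hearts, against -0.15, 0.068, -0.24, 0 and 0.077 in HF diet exposed hearts. Such a separation, with every combination exposed heart higher, was seen in 0.682% of all probe sets. The difference was 0.22 (SE 0.089), with p = 0.0203 in limma and an exact permutation p of 0.00794, the smallest that 5 against 5 hearts allow. Gpx1 ran from 0.077 to 0.53 in combination exposed hearts, against -0.14, 0.10, -0.17, -0.09 and 0 in HF diet exposed hearts. It differed by 0.30 (SE 0.10, exact permutation p = 0.0159), and passed the fold limit without combination exposed heart 4 or 5 or HF diet exposed heart 2. Sod1 differed by 0.24 (SE 0.086, exact permutation p = 0.0317).

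Against diabetes exposed hearts 0 of 10 enzymes passed the threshold, where 3.04% of all probe sets did. The difference was above 0 for 8 of 10, against 51% of all probe sets, with a median of 0.18 against 0.0036 over all. Sod1 had 0.42, 0.30, 0.21, 0.065 and 0.18 in combination exposed hearts, against -0.049 to 0.12 (median -0.0025) in diabetes exposed hearts. Of the combination exposed hearts 4 were above all 6 diabetes exposed hearts, and the difference was 0.22 (SE 0.082, p = 0.0134 in limma, exact permutation p = 0.00649). Prdx3 differed by 0.19 (SE 0.085, exact permutation p = 0.026), and 2 of 10 had an unadjusted p under 0.05 in limma, against 9.41% of all probe sets. The largest differences, those of Gstk1 (0.34, 95% interval -0.076 to 0.75) and Prdx5 (0.31, -0.039 to 0.66), did not pass. Without combination exposed heart 1 they were 0.26 for Gstk1 and 0.18 for Prdx5, and both passed without diabetes exposed heart 5 or without combination exposed heart 4, at 0.39 to 0.46. These comparisons with diabetes exposed, HF diet exposed and control hearts share the same 5 combination exposed hearts and are not independent of each other.

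The interaction asks whether the effect of maternal diabetes differed between HF diet and control diet. It was past the threshold for Prdx5, at 0.60 (SE 0.23, 95% interval 0.12 to 1.09, unadjusted p = 0.017, adjusted p = 0.672 in limma). Of 10 enzymes 1 passed upward and 0 downward, against 4.34% of all probe sets in either direction and 1.78% upward. The group means of Prdx5 were 0.37 ± 0.40 with both exposures, 0.062 ± 0.20 with diabetes alone, -0.23 ± 0.36 with HF diet alone and 0.066 ± 0.22 with neither (SD, n = 5, 6, 5 and 7). For Gstk1 the interaction was 0.50 (SE 0.28, adjusted p = 0.672) and did not pass. It was 0.30 without HF diet exposed heart 3, and it passed at 0.62 without diabetes exposed heart 5 or without combination exposed heart 4. The term was above 0 for 10 of 10 enzymes, against 48.6% of all probe sets. Without combination exposed heart 1 and HF diet exposed heart 3 together the Prdx5 term was 0.32 (SE 0.19) and no enzyme passed.

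**Figure D3:**
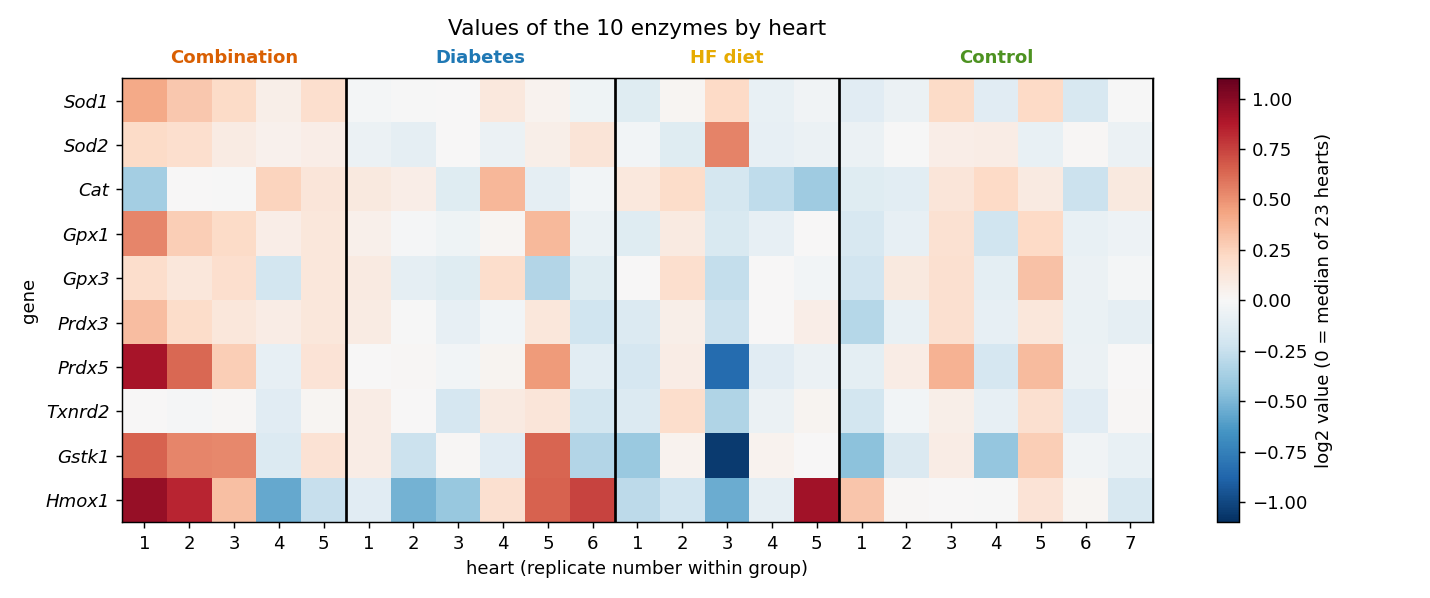
Log2 value (colour, 0 being the median of the 23 hearts) of the 10 enzymes (rows) in each heart (columns, by replicate number within the 4 groups). Combination exposed heart 1 and HF diet exposed heart 3 hold the extremes for Prdx5 (0.90 and -0.85) and Gstk1 (0.65 and -1.06).

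Several of the enzymes moved together from heart to heart. Of the 45 pairs of enzymes, 19 had a Pearson r above 0.5 over the 23 hearts and 1 had an r below -0.5 (Sod2 with Txnrd2, -0.52). Taken as deviations from the group means, 16 pairs stayed above 0.5. For the values themselves the highest r was that of Prdx5 and Gstk1 at 0.91, followed by Gpx1 with Prdx3 at 0.89 and Gpx1 with Prdx5 at 0.87. As deviations these 3 pairs had an r of 0.88, 0.84 and 0.87. These correlations are descriptions over arrays that each carry all 10 genes, so a property of an array enters both sides. The median over the 10 enzymes was 0.38, 0.23, 0.20, -0.024 and 0.12 in combination exposed hearts 1 to 5. It was -0.25 in HF diet exposed heart 3, the lowest of any heart, and 0.20 in control heart 5 and 0.15 in control heart 3. Control and combination exposed hearts thus overlapped in this median.

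Gpx1, Prdx3, Prdx5 and Gstk1 formed the tightest set, and their promoters are printed for what the letters share. The sequences are the 250 bases before the start site in RefSeq's GRCr8 table, 5′ to 3′ on the strand of the gene, with each GC box (GGGCGG on either strand, the core bound by SP factors) in capitals. For Prdx5 and Gstk1 the table's start lies inside the span annotated for the gene. Gpx1 is chr8:117905212-117905461, plus strand, Prdx3 chr1:270000112-270000361, minus strand, Prdx5 chr1:213532028-213532277, minus strand, and Gstk1 chr4:72085364-72085613, plus strand.
Gpx1: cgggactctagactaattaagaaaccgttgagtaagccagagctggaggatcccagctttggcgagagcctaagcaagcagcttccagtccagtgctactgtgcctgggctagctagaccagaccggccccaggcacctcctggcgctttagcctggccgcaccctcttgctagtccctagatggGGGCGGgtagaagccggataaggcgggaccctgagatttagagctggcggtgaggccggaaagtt
Prdx3: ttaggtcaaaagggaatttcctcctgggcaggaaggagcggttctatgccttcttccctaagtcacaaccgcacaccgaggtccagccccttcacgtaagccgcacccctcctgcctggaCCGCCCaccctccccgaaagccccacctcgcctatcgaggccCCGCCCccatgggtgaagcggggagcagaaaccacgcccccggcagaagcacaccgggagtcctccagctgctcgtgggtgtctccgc
Prdx5: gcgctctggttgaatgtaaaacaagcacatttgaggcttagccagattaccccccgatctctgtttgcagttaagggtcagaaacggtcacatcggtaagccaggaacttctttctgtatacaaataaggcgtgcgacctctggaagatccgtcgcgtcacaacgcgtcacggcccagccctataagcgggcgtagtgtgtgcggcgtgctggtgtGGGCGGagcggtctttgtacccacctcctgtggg
Gstk1: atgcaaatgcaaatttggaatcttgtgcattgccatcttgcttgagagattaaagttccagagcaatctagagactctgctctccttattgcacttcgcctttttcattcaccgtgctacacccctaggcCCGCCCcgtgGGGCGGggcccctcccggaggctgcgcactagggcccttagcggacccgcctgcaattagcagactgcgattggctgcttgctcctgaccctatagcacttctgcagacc

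Promoter entries of 300 bases (250 before to 50 after the start) were matched by symbol for 9 of the 10 enzymes, all but Hmox1. A GC box was found in 8 of the 9, all but Cat, and in 33.1% of the 33469 promoters of the table. GC content of the 4 printed genes' entries was 57% to 63.7%, against a median of 51.7% over the table. The core of the antioxidant response element, TGACNNNGC on either strand, which NRF2 binds when cells meet oxidants, was found in 2 of the 9 and in 12.1% of all promoters. The matches were in Sod2, 35 bases before the start, and in Prdx5, across the start, both on the opposite strand, and they shared no base with a GC box. They are shown with their flanks and the core in capitals, for Sod2 at chr1:50050185-50050213 and for Prdx5 at chr1:213532010-213532038, both minus strand. A match of letters is a description of the sequence and not evidence of binding.
Sod2: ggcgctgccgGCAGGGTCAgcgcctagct
Prdx5: cctcctgtggGCAGAGTCAtctgcgggtg

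By chromosome the 10 genes lie apart, except that Sod2, Prdx5 and Prdx3 are all on chromosome 1 (GRCr8 starts 50043323, 213529042 and 269987691) and Sod1 and Txnrd2 both on chromosome 11 (42942742 and 96024321). Gpx1 is chr8:117905462-117906588, Gstk1 chr4:72085532-72089934, Cat chr3:110297340-110329526, Gpx3 chr10:39529335-39537406 and Hmox1 chr19:13452365-13479823.

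The genes most like each enzyme over the 23 hearts had varied roles, and no theme was tested. Prdx3 went with Idh3b, a subunit of the citric acid cycle's NAD-dependent isocitrate dehydrogenase (r = 0.96), and Mrps17, a mitochondrial ribosomal protein (0.94). Gpx1 went with Aprt and Coq6 (both 0.96), and Coq6 acts in coenzyme Q synthesis. Gstk1 went with Stx8 (0.96) and Mrpl38 (0.95), and Prdx5 with Eif3i (0.95) and Npc2 (0.95). Sod1 was most like Ndufb4 (0.91), a complex I subunit, and Coq3 (0.90), and Sod2 most like Ndufb3 (0.87) and Uqcrb (0.85), subunits of complexes I and III. Txnrd2 was most like Ptov1 (0.93) and Paqr7 (0.92), Gpx3 most like Tmem163 (0.86) and Igsf1 (0.78), Hmox1 most like Ubqln1 (0.83) and Nsun2 (0.82), and Cat most like Tbc1d24 (0.84) and Acsl1 (0.83), of which Acsl1 activates fatty acids. In each case these were the highest r among probe sets with 1 symbol.

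The mean of 72 probe sets for mitochondrial ribosomal proteins ran beside these enzymes. It was 0.25 in combination exposed hearts, -0.019 in diabetes exposed hearts, -0.053 in HF diet exposed hearts and -0.015 in controls. Its r over the 23 hearts was 0.94 with Gpx1, 0.88 with Prdx3, 0.86 with Prdx5, 0.81 with Gstk1 and 0.78 with Sod1, but 0.20 with Sod2 and -0.21 with Cat. Against controls 18 of the 72 probe sets were past the threshold upward in combination exposed hearts and 0 downward, with a median of 0.25, above the 0.22 of the enzymes. For 41 complex I probe sets these were 6, 0 and 0.16. Of all probe sets 2.1% passed upward in this comparison and 3.31% in either direction. A list of 10 very long transcripts of chromatin genes, a kind that is sensitive to RNA integrity, ran the other way, with a mean of -0.27 in combination exposed hearts, 0.043 in diabetes exposed hearts, 0.077 in HF diet exposed hearts and 0.033 in controls. Its range in combination exposed hearts was -0.74 to -0.020, against -0.32 to 0.34 in controls. Its r was -0.92 with Gpx1, -0.90 with Prdx3, -0.83 with Prdx5, -0.80 with Gstk1 and -0.73 with Sod1. Against controls 5 of its 10 probe sets were past the threshold downward and 0 upward, where 3.31% of all probe sets passed in either direction. The lists were chosen with earlier results of these data known. The part of RNA integrity in the higher values of these 5 enzymes was not tested.

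**Figure D4:**
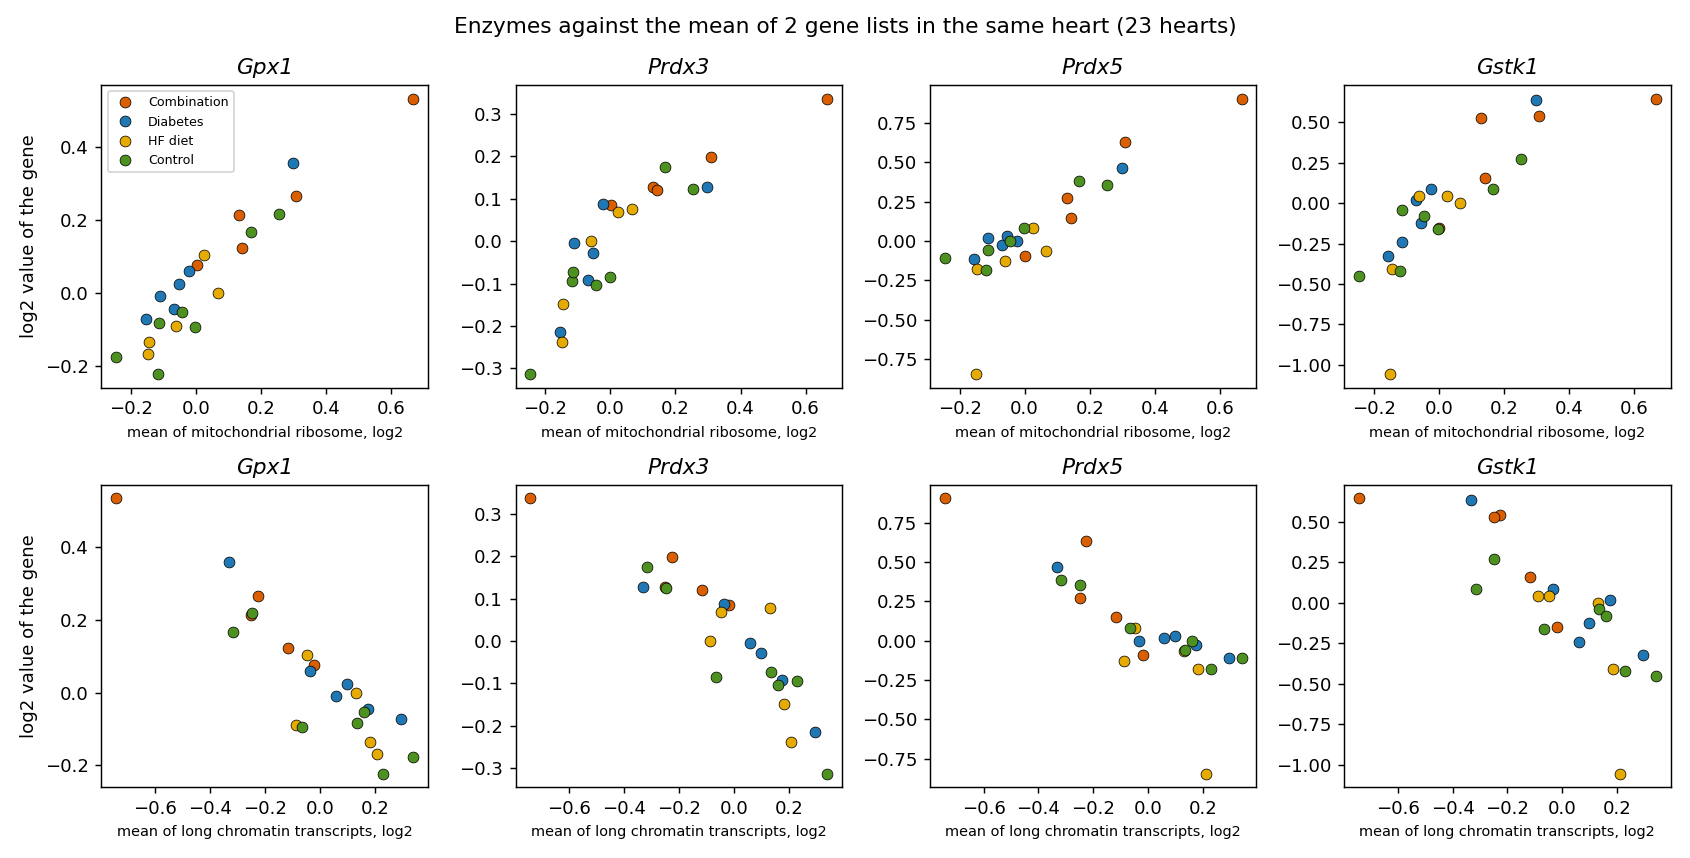
Log2 value of Gpx1, Prdx3, Prdx5 and Gstk1 (vertical axes) against the mean log2 value of 72 mitochondrial ribosome probe sets (upper row) and of 10 long chromatin transcripts (lower row) in the same heart, coloured by group. The 4 enzymes rise with the first list (r 0.81 to 0.94) and fall with the second (r -0.80 to -0.92), and combination exposed heart 1 is at the end of both axes.

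Erythroid genes also differed between the groups. Their 10 probe sets averaged 0.29 in combination exposed hearts (from -0.36, with heart 2 the highest of all 23), 0.19 in diabetes exposed hearts (-0.065 to 0.61), -0.14 in HF diet exposed hearts (-0.29 to 0.082) and -0.18 in controls (-0.62 to 0.25). Against controls 1 of the 10 was past the threshold upward, where 2.1% of all probe sets were, and 0 downward, with a median of 0.35. With the erythroid mean as a covariate the differences from controls were 0.18 for Sod1 (SE 0.084), 0.20 for Gpx1 (SE 0.097) and 0.18 for Prdx3 (SE 0.090) in limma, each smaller than without it. The unadjusted p of Prdx3 in limma was then 0.0584. For Prdx5 the difference from controls was 0.15 (SE 0.165) with the covariate and 0.31 without it. Against HF diet exposed hearts, Prdx5 and Gstk1 still passed with this covariate, at 0.45 (SE 0.17) and 0.47 (SE 0.21). The 9 macrophage probe sets averaged 0.085 in combination exposed hearts, 0.017 in diabetes exposed hearts, 0.0074 in HF diet exposed hearts and 0.051 in controls. The 8 cardiomyocyte probe sets, sarcomere and calcium-handling genes among them, averaged -0.081 in combination exposed hearts (-0.29 to 0.012), -0.0020 in diabetes exposed hearts (-0.13 to 0.11), 0.020 in HF diet exposed hearts (-0.054 to 0.12) and 0.010 in controls (-0.11 to 0.11), with 0 of 8 past the threshold against controls. Their mean had an r of -0.90 with Gpx1, -0.84 with Prdx5 and -0.76 with Gstk1 over the 23 hearts, and its part in the results was not tested. The 8 fibroblast probe sets averaged -0.13 in combination exposed hearts (-0.32 to -0.029), 0.0038 in diabetes exposed hearts (-0.13 to 0.13), -0.020 in HF diet exposed hearts (-0.19 to 0.059) and 0.015 in controls (-0.13 to 0.15). Against controls 0 of these 8 were past the threshold, 1 of 8 differences was above 0 and their median was -0.17. The 5 adipocyte probe sets averaged -0.25 in combination exposed hearts (-0.53 to 0.32), 0.37 in diabetes exposed hearts (-0.41 to 0.86), 0.079 in HF diet exposed hearts (-0.42 to 0.71) and 0.30 in controls (-0.44 to 1.3). Again 0 were past the threshold against controls, with 1 of 5 differences above 0 and a median of -0.35. Over the 23 hearts Gpx1, Prdx3, Prdx5 and Gstk1 had an r of -0.47, -0.24, -0.27 and -0.23 with the fibroblast mean and -0.14, -0.21, 0.037 and -0.088 with the adipocyte mean, and the part of either list in the results was not tested. The 6 liver probe sets averaged 0.15 in combination exposed, 0.13 in diabetes exposed, -0.036 in HF diet exposed and 0.13 in control hearts. Against controls 0 of these 6 were past the threshold. Control heart 5 (0.82) and diabetes exposed heart 5 (0.695) held the highest liver means of the 23 hearts. The liver mean had an r of 0.51 with Gpx1, 0.45 with Prdx3, 0.50 with Prdx5 and 0.57 with Gstk1. Its part in the results was not tested.

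Hmox1 differed from the other enzymes in its spread. Values in combination exposed hearts were 0.95, 0.84, 0.34, -0.57 and -0.25, and in HF diet exposed hearts -0.29, -0.21, -0.55, -0.099 and 0.93. In diabetes exposed hearts they ran from -0.52 to 0.74 (median 0.026) and in controls from -0.18 to 0.30 (median 0.01). Every exposed group thus held hearts both above and below the whole control range. The SD was 0.66 in combination exposed hearts, 0.53 in diabetes exposed hearts, 0.57 in HF diet exposed hearts and 0.15 in controls, and only 1.68%, 2.92%, 1.76% and 57.6% of all probe sets were wider in those groups. No test of the spread was run. Over the 23 hearts Hmox1 had an r of 0.57 with the macrophage mean and 0.57 with the erythroid mean, the highest among the 10 enzymes for both lists. Macrophages that clear red cells are a known site of heme oxygenase, and the part of either cell type in this spread was not tested. Gstk1 and Prdx5 had the next widest pooled SD, 0.35 and 0.29, where the median over all probe sets was 0.176. Sod1, Prdx3, Txnrd2, Sod2 and Gpx1 were narrower than that median, and Gpx3 lay just under it at 0.175.

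Other redox genes were followed in a list of 70 genes with 78 probe sets, sorted by role, which included 8 genes of oxidant production. Its 5 heme and iron genes had 11 probe sets, most of them for Ftl1, so counts of probe sets weigh Ftl1 more than once. In combination exposed hearts against controls 2 of 78 passed upward and 0 downward, close to the share over all probe sets given above. The difference was above 0 for 53 of 78, with a median of 0.060. By role, 9 of 9 probe sets for removal of hydrogen peroxide (other peroxiredoxins and glutathione peroxidases) and 10 of 12 of the thioredoxin and glutaredoxin system were above 0, while 2 of 8 for NRF2 control and quinone reduction were. The 2 that passed were Blvrb, biliverdin reductase B, a flavin and biliverdin reductase plentiful in red cells, and Msrb1, a selenoprotein that reduces oxidized methionine. Blvrb had 1.08, 0.52, 0.28, 0.056 and 0.07 in combination exposed hearts and -0.68 to 0.25 in controls, a difference of 0.58 (SE 0.21, adjusted p = 0.495 in limma). Msrb1 had 0.99, 0.39, 0.41, -0.027 and 0.20 in combination exposed hearts and -0.26 to 0.36 in controls, a difference of 0.36 (SE 0.17, adjusted p = 0.499). In both genes the groups overlapped, and combination exposed heart 1 was highest of all 23 hearts. Neither passed when combination exposed heart 1 and HF diet exposed heart 3 were left out together, nor with the erythroid covariate.

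Against HF diet exposed hearts 10 of 78 passed upward and 0 downward, where 2.84% of all probe sets passed upward and 5.76% in either direction. Differences were above 0 for 64 of 78, with a median of 0.16, against 47.1% of all probe sets above 0. The 6 with the smallest p were Blvrb (0.70, SE 0.23), Msra, the other main methionine sulfoxide reductase (0.35, SE 0.12), Msrb1 (0.52, SE 0.18), Mgst2, a microsomal glutathione transferase (0.36, SE 0.13), Nqo1, the quinone reductase that NRF2 induces (0.48, SE 0.18), and Me3, the mitochondrial malic enzyme that supplies NADPH (0.34, SE 0.14). Their adjusted p was 0.368 in limma. Me3 had 0.40, 0.21, 0.18, 0.063 and 0.086 in combination exposed hearts, against -0.084, -0.007, -0.35, -0.24 and -0.071 in HF diet exposed hearts. Blvrb had -0.37, 0.052, -0.76, -0.13 and -0.28 in HF diet exposed hearts. In these 2 genes all combination exposed hearts lay above all HF diet exposed hearts, and in Nqo1 hearts 3 and 4 of the combination group fell within the HF diet range. The count was 0 without combination exposed heart 1 and HF diet exposed heart 3 and 2 with the erythroid covariate.

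Against diabetes exposed hearts 2 of 78 passed upward, Msrb1 (0.40, SE 0.18, adjusted p = 0.528) and Glrx3, a glutaredoxin that carries iron-sulfur clusters (0.33, SE 0.16, adjusted p = 0.529), and 0 downward, a share below the 3.04% of all probe sets that passed in either direction. Glrx3 had 0.94, 0.51, 0.12, -0.015 and 0.069 in combination exposed hearts and -0.18 to 0.31 in diabetes exposed hearts, so hearts 1 and 2 alone exceeded that range. Without combination exposed heart 1 and HF diet exposed heart 3 the count was 0. In diabetes exposed hearts against controls, HF diet exposed hearts against controls and diabetes exposed against HF diet exposed hearts 0 of 78 passed. In HF diet exposed hearts 23 of 78 differences from controls were above 0, with a median of -0.079, where 55.8% of all probe sets were above 0. The interaction passed for Msra (0.42, SE 0.16), Msrb1 (0.56, SE 0.24) and Cybb, the catalytic subunit of the phagocyte NADPH oxidase that makes superoxide (0.41, SE 0.18), which is 3 of 78, where 1.78% of all probe sets passed upward and 4.34% in either direction. Cybb was not higher with both exposures than in controls, with means of 0.146 and 0.151. Its means were -0.0605 in diabetes exposed and -0.0496 in HF diet exposed hearts. Control heart 1, the one with high lymphocyte and thymus genes, had the highest Cybb of all hearts at 0.63.

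**Figure D5:**
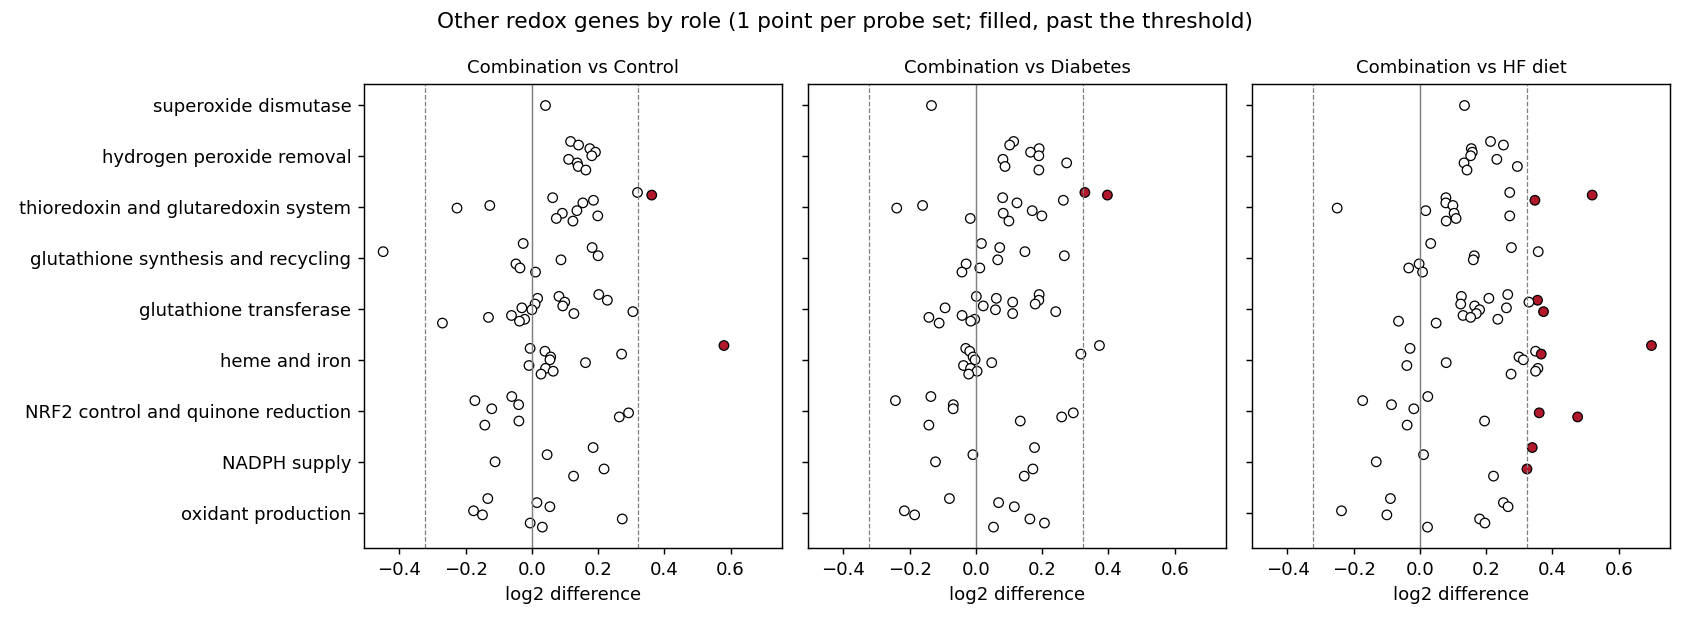
Log2 difference of 78 probe sets of other redox genes (1 point each) by role in combination exposed hearts against control, diabetes exposed and HF diet exposed hearts; dashed lines mark the fold limit of 0.32 and filled points passed the threshold. The points that passed number 2, 2 and 10 in the 3 panels, all to the right of 0.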

How the data were processed

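RNA of 23 hearts was hybridized to Affymetrix Rat Gene 1.0 ST arrays. Probe intensities were averaged per probe set and normalized by the authors in GeneSpring GX. The deposited table holds log2 values of 29170 probe sets, and testing it showed a median of 0 over the 23 arrays in every one. Which normalization algorithm and which quality filter limits were used is not stated. The centring removes signal over background, so probe sets near background cannot be recognized. The number of hearts also limits the precision. No column of per-sample values was left unused (0).

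Deposited log2 values were used without a second normalization. Groups came from the labels. limma 3.58.1 in R 4.3.3 (lmFit and eBayes, 1 mean per group) gave 6 pairwise differences and the interaction, with Benjamini-Hochberg adjustment over 29170 probe sets. The methods' t-test (unequal variances) served as an alternative. For single enzymes an exact two-sided permutation test enumerated all splits of 2 groups. The fit was tested on simulated data. Other alternatives were quantile normalization, array weights, sample code stems averaged or as a random block, the replicate number as a block, an erythroid covariate, probe sets with 1 symbol only, and leaving out each heart.

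Symbols came from the array annotation (15310 probe sets with 1 symbol, of which 15279 matched a RefSeq Entrez identifier and 0 changed name). Gene positions and promoters came from RefSeq tables of GRCr8. The genes named are the 10 enzymes, at most the 6 other redox genes with the smallest p past the threshold per comparison, and the 2 genes most correlated with each enzyme. In the list of other redox genes 8 had no probe set with 1 symbol. The enzymes and lists were chosen with earlier results of these data known. Tables used pandas 2.3.3, scipy 1.17.1 and numpy 2.4.6 under Python 3.11.15, and figures matplotlib 3.10.9.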

Additional observations from a re-analysis of the deposited data

Results flagged for a closer look

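In 6 of 40 combinations of enzyme and group, 1 heart stood apart from the others of its group by Dixon's criterion, which chance alone meets in about 1 of 20 groups. HF diet exposed heart 3 was high in Sod2 (0.55 on the centred log2 scale) and low in Prdx5 (-0.85). Diabetes exposed heart 5 was high in Gpx1 (0.36) and in Prdx5 (0.47). Combination exposed heart 4 was low in Gpx3 (-0.20) and in Txnrd2 (-0.12). These 6 values come from 3 hearts and are not independent of each other.

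The interaction term of Prdx5 was 0.60 on the log2 scale (SE 0.23, unadjusted p = 0.017 and adjusted p = 0.672 in limma). Without combination exposed heart 1 and HF diet exposed heart 3 together, chosen after seeing the data, it was 0.32 (SE 0.19) and did not pass. All 4 groups enter this term, including the 3 hearts named above.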

How the results depend on the processing

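The replicate number as a block left 0 enzymes past the threshold against controls (Gstk1 0.44, SE 0.21) and 0 other redox genes against controls and against diabetes exposed hearts. Whether the numbers stand for more than names of hearts is not given. Over 31 pairs with the same number the correlation of deviations had a median of -0.083 and ran from -0.42 to 0.56. Of 23 hearts 7 correlated best with their own number, and these values do not settle whether the numbers pair hearts. The erythroid covariate left 0 enzymes (Gstk1 0.29) and 0 other redox genes against controls, 1 against diabetes exposed and 2 against HF diet exposed hearts. By exact permutation 1 enzyme passed against HF diet exposed hearts. Other redox genes against controls numbered 1 by the methods' t-test, quantile normalization, array weights and the code stem as a random block. Against diabetes exposed hearts they numbered 0 by the methods' t-test and array weights, and 1 by quantile normalization and both uses of code stems. Against HF diet exposed hearts they numbered 3, 3 and 5 by quantile normalization, array weights and averaged stems, and diabetes exposed against HF diet exposed hearts gave 1 by quantile normalization. For each of these the cause was not tested.

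Signs turned for small differences. Against controls in combination exposed hearts Cat was 0.049 (quantile normalization), 0.069 (array weights) and 0.0039 (erythroid covariate), Txnrd2 -0.0086 (quantile normalization), -0.017 (replicate block) and -0.029 (erythroid covariate), Gpx3 -0.01 and Hmox1 -0.12 (erythroid covariate), and Gstk1 in diabetes exposed hearts -0.011 (erythroid covariate). Between combination and HF diet exposed hearts Cat was -0.01 (stems averaged) and Hmox1 -0.0013 (erythroid covariate), and between diabetes and HF diet exposed hearts Hmox1 was -0.045 (array weights) and -0.11 (erythroid covariate).

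Leaving out 1 heart gave these ranges. Enzymes past the threshold numbered 0 to 2 for combination against controls, 0 to 0 for diabetes against controls, 0 to 1 for HF diet against controls, 0 to 2 for combination against diabetes, 2 to 3 for combination against HF diet, 0 to 0 for diabetes against HF diet and 1 to 2 for the interaction. Other redox genes numbered 0 to 7, 0 to 0, 0 to 3, 0 to 7, 2 to 14, 0 to 7 and 1 to 9 in the same order. Differences from controls in combination exposed hearts were -0.07 to 0.084 for Cat, -0.023 to 0.039 for Txnrd2 and 0.38 to 0.58 for Gstk1. Gstk1 was -0.0032 to 0.19 in diabetes exposed and -0.24 to 0.034 in HF diet exposed hearts against controls, and Hmox1 -0.0038 to 0.37 between diabetes and HF diet exposed hearts. Prdx5 and Gstk1 were 0.44 to 0.72 and 0.42 to 0.74 between combination and HF diet exposed hearts, and the interaction of Prdx5 was 0.45 to 0.72. Without combination exposed heart 1 and HF diet exposed heart 3 together, chosen after seeing the data, 0 enzymes passed against HF diet exposed hearts and in the interaction, and 0 other redox genes passed against controls, diabetes exposed and HF diet exposed hearts or in the interaction. The Hmox1 interaction was then -0.037, against a range of 0.089 to 0.50 with 1 heart left out, and Cat against controls 0.084. Restricting the adjustment to probe sets with 1 symbol changed no count.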
